A study of Rattus norvegicus with 28 samples.

Results

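The strain difference between SHR/OlaIpcv and BN-Lx/Cub rats was examined in the brains of females at post-estrus, the phase that follows estrus, with 4 animals per strain. These 8 libraries were chosen by their labels out of 28 in the series, which also holds females at pre-estrus and estrus and males of both strains. All animals were untreated inbred rats as far as the labels say, without a transgene or an induced mutation. Their ages are not given in the labels. RNA was taken from whole brain, depleted of ribosomal RNA and sequenced, and each library counts estimated reads for 32623 Ensembl genes.

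SHR is an inbred strain that develops high blood pressure spontaneously. BN-Lx is a Brown Norway strain that carries a limb malformation mutation, and crosses of these strains founded a widely used panel of recombinant inbred rats. After the estradiol peak and ovulation the ovary passes to a phase of lower estradiol and rising progesterone, and both steroids act on receptors in the brain. Inbred animals of a strain are close to genetically identical, so that strain comparisons set 1 genome against another. The comparison asked which genes differed between the strains at post-estrus and whether these differences were particular to that stage.

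The deposited tables name genes by Ensembl identifier only, and 0 of the identifiers could be paired with a symbol. No pathway, cell type marker or sex-linked gene could therefore be looked up, and the tissue label was not checked against markers. The genes are described below by identifier for the largest changes and otherwise as groups by expression level, length and size of change. Whole brain was used, so fewer cells of a type and less RNA per cell cannot be told apart.

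The 8 libraries held 43410499 to 90667163 estimated reads. SHR replicates 6, 8 and 13 and BN-Lx replicate 5 carry the suffix b35 in the sample description, and SHR replicate 12 and BN-Lx replicates 3, 4 and 6 carry b37. The meaning of the suffix is not given. Of the SHR libraries 3 are b35, and of the BN-Lx libraries 3 are b37, so at this stage strain and suffix are partly tied, and the fit carried a term for the suffix that was estimated over all 28 libraries. The descriptions hold a further number of unstated meaning, shared by BN-Lx replicates 4 and 5 and, with another value, by SHR replicates 6 and 8. In none of the 28 libraries does a value of it occur in both strains. Whatever it stands for cannot be told apart from strain, at post-estrus or in the fit of all libraries. BN-Lx replicate 5 stood apart from the others. It detected 16607 genes with at least 1 read, against 18111 to 20000 in the other 7 libraries. With at least 10 reads it detected 15979, inside the range of the others (15915 to 16771). It lay at -138 on the first principal component (38.8% of the variance), where the others lay between -16.3 and 66.6. SHR replicate 13 was at the other end of that component. The components did not separate the strains on the first axis, since BN-Lx replicates 3 and 4 lay at 14.3 and 13.1, between SHR replicates 6 (8.65) and 8 (15.4). On the second component (19.9% of the variance) BN-Lx replicates 3, 4 and 6 lay between -81.1 and -24.0 and the SHR libraries between 6.91 and 56.4, but BN-Lx replicate 5 lay at 26.1, among the SHR libraries.

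Of 18134 genes tested, 454 differed between the strains at post-estrus (2.5% of those tested, edgeR's quasi-likelihood test with Benjamini-Hochberg adjustment, adjusted p under 0.05). Of these, 192 were higher in SHR (1.06%) and 262 were lower (1.44%). No BN-Lx library reached into the SHR range for 422 of the 454, and 7.39% of all tested genes were separated in this way. Lower calls outnumbered higher calls, and this balance was turned when the share of the most abundant gene was a covariate (1419 higher of 2269) and when b35 libraries were fitted alone (1266 higher of 1802). The b37 libraries alone called 63 genes, 25 higher and 38 lower. At post-estrus each of these fits has 1 animal in an arm, BN-Lx replicate 5 or SHR replicate 12, which is assumed to vary like the other groups. The error was estimated over 28 libraries, and the 8 post-estrus libraries fitted alone with the suffix term called 98 genes (0.594% of 16501 tested), all of them among the 454. Without BN-Lx replicate 5 the count was 273, and without SHR replicate 12 it was 294. Without both BN-Lx replicate 5 and SHR replicate 13 it was 241, of which 211 were among the 454.

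**Figure D1:**
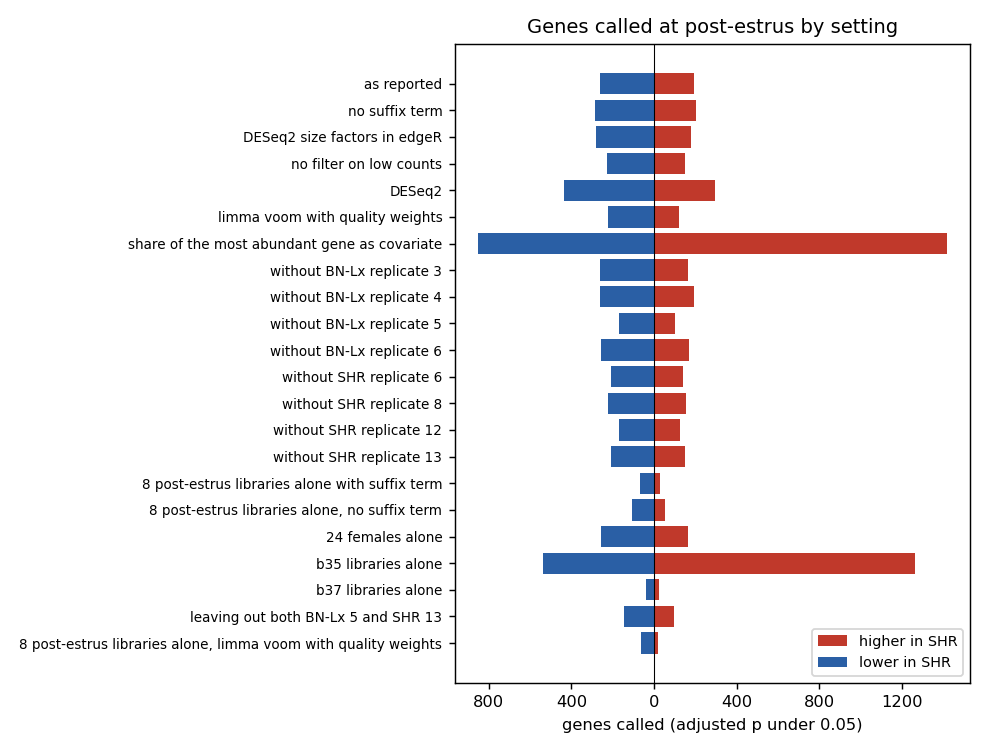
Number of genes called at an adjusted p under 0.05 for SHR against BN-Lx at post-estrus (horizontal axis), with genes lower in SHR drawn to the left of 0 and genes higher to the right, for the fit reported (top bar) and each other setting. Lower calls outnumber higher calls in the reported fit (262 against 192), and higher calls outnumber lower ones with the most abundant gene's share as covariate and with b35 libraries alone.

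The called differences ran from less than 2-fold to genes close to absent in 1 strain. For 24 called genes no read was found in any of the 4 libraries of the low strain, 10 in BN-Lx and 14 in SHR. With those genes set at the lower bound of their fold, the median change of the called genes was 1.18 on the log2 scale (quartiles 0.65 and 2.7). It was 1.02 for genes higher in SHR and 1.39 for genes lower in SHR. On this scale, 255 genes changed by more than 2-fold (98 higher and 157 lower), 150 by more than 4-fold (56 and 94) and 63 by more than 16-fold (30 and 33).

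Among called genes averaging at least 1 CPM, ENSRNOG00000031378 had the largest fitted rise in SHR, a rank that is uncertain where BN-Lx has no read. It has a single annotated transcript of 786 bases. Its level was 8.92, 6.09, 7.51 and 7.42 CPM (the gene's reads relative to all gene reads of the library, scaled between libraries) in SHR replicates 6, 8, 12 and 13. No read was found in any of the 4 BN-Lx libraries. The groups did not overlap, and the level was at least 80.4-fold higher in SHR, the lowest SHR level over the highest BN-Lx floor, with 3 reads per library as the floor (adjusted p = 1.4e-09, edgeR). The 20 libraries of other stages and of males kept this order of strains. The SHR females at pre-estrus averaged 8.05 ± 1.51 CPM (SD, n = 4), those at estrus 8.08 ± 1.19 (SD, n = 4), and no BN-Lx library had more than 3 reads.

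ENSRNOG00000019050, with a single transcript of 2068 bases, was next. It had 7.08, 10.23, 4.56 and 7.2 CPM in SHR replicates 6, 8, 12 and 13. Again no read was found in the BN-Lx libraries at post-estrus, so that the level was at least 60.3-fold higher in SHR (adjusted p = 1.87e-07, edgeR). SHR levels varied more for this gene than for the first, from 2.54 to 12.05 CPM over the other SHR libraries, and the most reads in any other BN-Lx library were 4.

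In the other direction, ENSRNOG00000028449, with a single transcript of 689 bases, had the largest fitted fall in SHR among called genes averaging at least 1 CPM. It had 198, 151, 105 and 209 CPM in BN-Lx replicates 3, 4, 5 and 6, which is 134 TPM on average, a unit of level that allows for length. SHR replicates 6, 8 and 12 had no read and SHR replicate 13 had 3. The pooled BN-Lx level was 13580 times that of SHR, with a counting interval of 4645 to 65840 from so few reads (adjusted p = 2.67e-10, edgeR). That ratio rests on the 3 reads of SHR replicate 13: without this library SHR has no read, and the fitted log2 change goes from -13.36 to -16.07. The groups did not overlap.

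ENSRNOG00000040153, with a single transcript of 771 bases, was steadier within BN-Lx. It had 13.2, 14.9, 15.3 and 10.4 CPM in BN-Lx replicates 3, 4, 5 and 6, and no read in any SHR library at post-estrus. The SHR level was at least 201-fold below that of BN-Lx (adjusted p = 1.45e-08, edgeR). At other stages and in males SHR was not fully without it, with up to 14 reads in a library, and BN-Lx lay between 11.6 and 17.3 CPM.

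**Figure D2:**
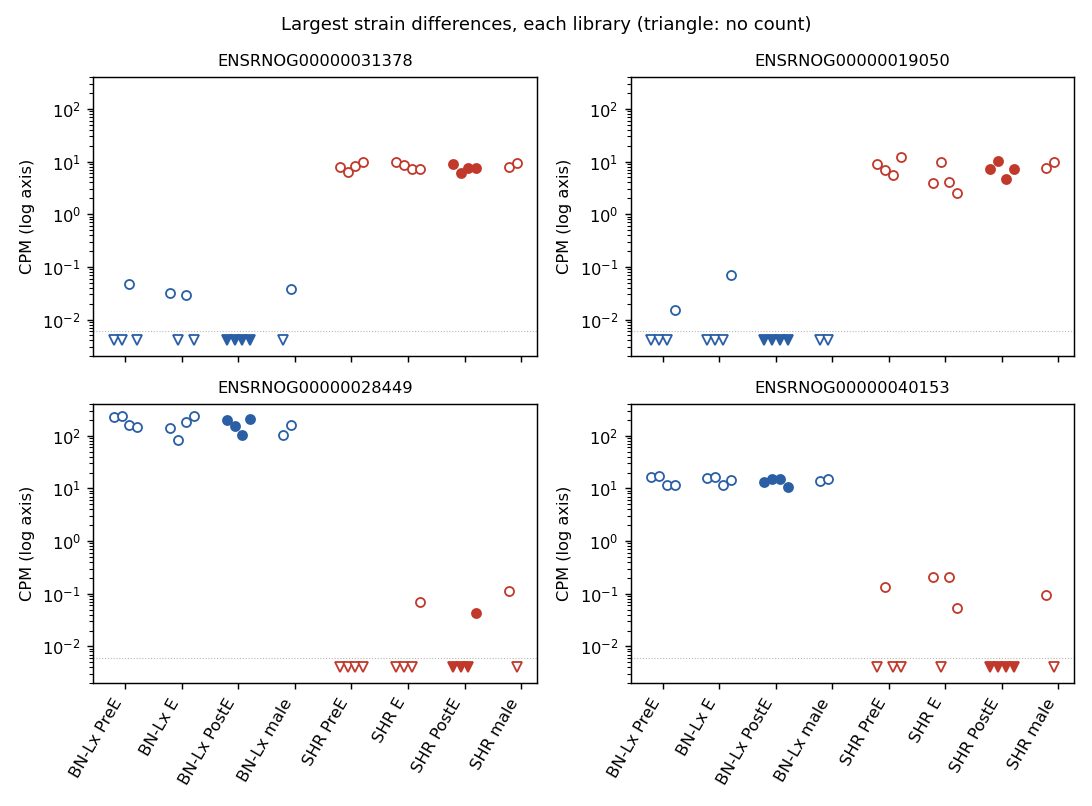
Level in every library of the 4 genes with the largest fitted strain differences at post-estrus, among called genes averaging at least 1 CPM. Values are in CPM on a log axis, by strain and stage or sex (blue, BN-Lx; red, SHR; filled, post-estrus; open, other groups; triangles under the dotted line, libraries with no read). The upper genes have 4.56 to 10.23 CPM in SHR at post-estrus and no read in BN-Lx, and the lower genes have 10.4 to 209 CPM in BN-Lx and at most 3 reads in SHR, with the same order of strains in the other groups.

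The 4 genes belong to a tail of 83 called genes with a fitted change over 16-fold, 38 higher in SHR and 45 lower. Most were low even in the strain that expressed them, with a median of 1.1 CPM in SHR for the higher and 1.03 CPM in BN-Lx for the lower genes, and highest means of 153.5 and 221.7 CPM. Genes under 500 bases made up 16 of the 38 and 25 of the 45, where 6.61% of all tested genes are that short. In the 16 other females, 34 of the 38 were separated between the strains in the same direction (1.1% of all tested genes were so separated and higher), as were 30 of the 45 (1.19% lower). In the 4 males these numbers were 36 (29.1%) and 42 (28.9%).

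Differences were called at all expression levels, with sizes that followed the precision. Among the 4139 genes under 1 CPM (mean over 28 libraries), 115 were called (2.78%), all of them with a fitted change over 2-fold, and the median standard error was 0.78 on the log2 scale. The share was highest among the 2665 genes at 1 to 4 CPM, at 3.87%, and lowest among the 2031 genes over 64 CPM, at 1.43%, where the median size of the called changes was 0.56 and the median standard error 0.14. In that most abundant class 13 genes were higher and 16 lower in SHR, and 8 of the 29 differed by more than 2-fold. Lower calls were the more frequent among genes under 1 CPM (71 against 44) and at 1 to 4 CPM (65 against 38), and the numbers were near even at 16 to 64 CPM (45 higher and 47 lower).

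**Figure D3:**
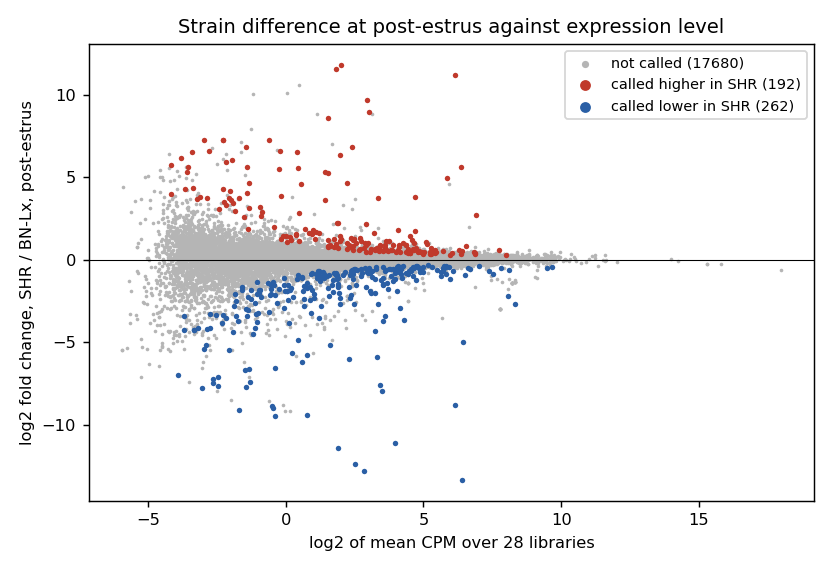
Log2 fold change of SHR over BN-Lx at post-estrus (vertical axis) against the log2 of the mean CPM over 28 libraries (horizontal axis), 1 point a gene, with 192 genes called higher in SHR in red, 262 called lower in blue and the others in grey. Under 1 CPM all 115 called changes are over 2-fold, and over 64 CPM 8 of the 29 are.

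For the genes that were not called, the data still limit the size of a difference. Of the 13656 such genes that averaged 1 CPM or more, 85.8% had a 95% interval that stayed inside a 2-fold change. The figure was 54.5% for a 1.5-fold and 97.6% for a 4-fold change. In simulated data drawn from these libraries' means and errors, with 18134 genes, the same test found 22.4% of the 1.5-fold, 49.3% of the 2-fold and 90.9% of the 4-fold changes, and 10 of its 118 calls were false. Genes were drawn independently there, with 67, 67 and 66 of them changed at these sizes. The shares found and the false calls need not carry over to the data. The error itself was not the same in both strains: the median standard deviation of log2 CPM over genes at 1 CPM or more was 0.29 among the BN-Lx libraries and 0.20 among the SHR libraries. It was 0.24 in BN-Lx without replicate 5 and 0.13 in SHR without replicate 13.

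Calls were divided unevenly over gene length. Of the 2794 tested genes over 4000 bases, 37 were called higher in SHR (1.32%, against 1.06% of all tested genes) and 13 lower (0.465%, against 1.44%). Of the 1198 under 500 bases, 24 were called higher (2%) and 48 lower (4.01%). Over all genes that averaged 1 CPM or more, called or not, the median log2 fold change was -0.25 in the 482 genes under 500 bases, -0.03 at 500 to 1000, 0.01 at 1000 to 2000, 0.06 at 2000 to 4000 and 0.08 in the 2551 genes over 4000 bases. The median over all tested genes was 0.04. The gap between the longest and the shortest class was 0.33 in the reported fit and kept its sign for these genes in each of the 21 other settings, from 0.27 with SHR replicate 12 left out to 0.45 with the most abundant gene's share as covariate. Over all tested genes, those under 1 CPM included, the gap was 0.31 as reported, but 0.01 with b35 libraries alone and 0.08 with no filter on low counts. The called counts did not keep their order in every setting: among genes over 4000 bases they were 2 and 2 in b37 libraries alone, and under 500 bases 52 higher and 48 lower in b35 alone and 9 and 9 in b37 alone.

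By library, short genes (under 500 bases) lay 0.30 above the mean of the 8 libraries in BN-Lx replicate 4 and 0.28 above it in BN-Lx replicate 5, in median log2 CPM. In SHR replicates 13 and 12 the values were -0.47 and -0.13. The strains overlapped, however, with BN-Lx replicate 6 at 0.03, SHR replicate 6 at 0.04 and SHR replicate 8 at 0.15. The gap between long and short genes averaged 0.15 ± 0.27 in SHR and -0.23 ± 0.19 in BN-Lx (SD, n = 4 each, exact permutation p = 0.0571, adjusted over 6 library measures 0.171). The SHR minus BN-Lx difference of this gap was 0.37 within b35 and 0.45 within b37. In the 16 pre-estrus and estrus females fitted alone the medians were -0.08 under 500 bases and -0.01 over 4000 bases.

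**Figure D4:**
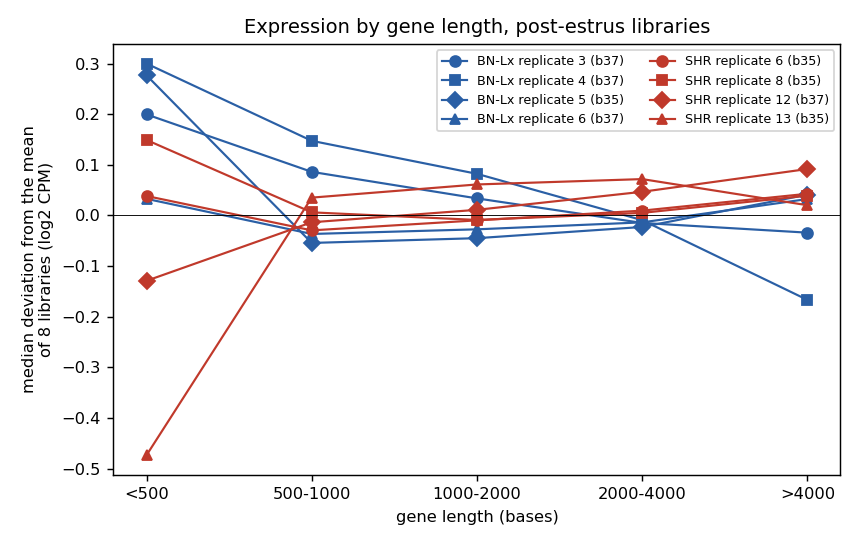
Median deviation of log2 CPM from the mean of the 8 post-estrus libraries (vertical axis) for genes averaging 1 CPM or more in 5 classes of length (horizontal axis, bases), 1 line a library (blue, BN-Lx; red, SHR). The shortest class spreads the libraries most, from -0.47 in SHR replicate 13 to 0.30 in BN-Lx replicate 4, with an overlap of the strains.

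None of 6 measures of library composition passed an adjusted test between the strains. The 8 most abundant genes took 42.4%, 44.7%, 41.1% and 34.8% of gene reads in SHR replicates 6, 8, 12 and 13, and 48.5%, 46.8%, 50.7% and 48.1% in BN-Lx replicates 3, 4, 5 and 6. The groups did not overlap, and SHR minus BN-Lx was -7.75 percentage points (exact two-sided permutation p = 0.0286, the smallest that 4 against 4 allows, adjusted 0.171). Within b35 it was -10.01 points and within b37 -6.66. The leading gene on its own, of 1571 bases, took 13.2% to 26.1% in SHR and 22.5% to 35.9% in BN-Lx, an overlap (exact permutation p = 0.171, adjusted 0.257). None of these 8 genes passed the test between strains, with adjusted p from 0.296 to 0.99 (edgeR). Among the 8 are rows with counts identical to another row in every library, which share their reads and are not separate measurements. Spike-in RNAs, synthetic transcripts added to each sample, took 2.17% to 6.05% of reads in SHR and 1.95% to 3.03% in BN-Lx (exact permutation p = 0.114, adjusted 0.229). For total reads and for genes detected the exact permutation p was 0.829 and 0.686 (adjusted 0.829 and 0.823). The part of library composition in the calls was not tested, beyond the covariate above, with which 433 of the 454 genes were called.

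The mix of transcripts of a gene could be followed through the mean transcript length that was estimated for each library. Of 3630 genes with several annotated transcripts and at least 4 CPM, 124 (3.42%) had lengths that did not overlap between the strains, 55 longer and 69 shorter in SHR. Random splits of 4 against 4 libraries would separate a share of 0.0286, so this count is near what no strain difference would give. Among the 65 of them that were called at post-estrus, 10 had lengths that did not overlap, 5 in each direction. That is 15.4%, against 3.2% of those not called. Of these 10 genes, 3 differed by more than 1.25-fold. All 3 were genes called lower in SHR, and no gene that was not called passed 1.25-fold without overlap. Most called genes, 78.2%, have a single annotated transcript, near the 73.2% of all tested genes, and offer no such measure.

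Whether the differences were particular to post-estrus was tested directly. The strain difference at post-estrus was set against the mean of the strain differences at pre-estrus and estrus, and no gene was called (0 of 18134, edgeR, smallest adjusted p = 0.823), with 391 genes (2.16%) at an unadjusted p under 0.05. If no gene differed and the p-values were exact, that share would be near 0.05 on average. The count at an unadjusted p under 0.05 (edgeR) moved with the setting, with 0 genes called each time. It was 207 without BN-Lx replicate 5, 637 without BN-Lx replicate 3 and 842 with the most abundant gene's share as covariate. Whether the test ran cautious or genes varied together was not tested. The 0 calls remain weak evidence that the stages are alike. DESeq2 called 8 genes and limma 0. Against estrus alone and pre-estrus alone, 0 genes were called in each case, with 337 and 377 at an unadjusted p under 0.05. The 95% interval of this contrast lay within 2-fold for 81.8% of the genes at 1 CPM or more and within 4-fold for 97.1%. For the remaining genes the interval reaches beyond these sizes.

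The genes with the smallest p of this contrast, among those with at least 1 CPM, did not pass its adjusted threshold. ENSRNOG00000046051 had 38.2, 0, 0.645 and 6.43 CPM in SHR replicates 6, 8, 12 and 13 and at most 0.05 CPM in BN-Lx at post-estrus. Its values swung widely within the other groups as well, from 5.06 to 48.9 CPM in BN-Lx at pre-estrus, and at post-estrus 1 SHR animal held most of its reads (unadjusted p = 0.000734, adjusted p = 1). ENSRNOG00000008067 had 3.53 ± 0.39 CPM in SHR and 2.69 ± 0.70 in BN-Lx (SD, n = 4), and its log2 strain difference was 0.68 ± 0.20 (SE) above that of the other stages (adjusted p = 1, edgeR). Its strains did overlap at post-estrus, with 3.19 to 3.90 CPM in SHR and 1.77 to 3.41 in BN-Lx. BN-Lx replicate 5 was the lowest, and without it the contrast was 0.46. For ENSRNOG00000011821 the contrast was -1.18 ± 0.32 (SE), with 1.23 to 2.18 CPM in SHR and 1.89 to 4.31 in BN-Lx, again an overlap (adjusted p = 1, edgeR). For ENSRNOG00000017907 it was -0.95 ± 0.26 (SE), with 4.91 to 8.48 CPM in SHR and 7.81 to 18.1 in BN-Lx (adjusted p = 1, edgeR). BN-Lx replicate 5 was the highest library for both, and without it the contrasts were -0.92 and -0.55.

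The called genes were then examined in animals that the comparison did not use. In the 16 pre-estrus and estrus females, fitted alone, 929 of 17136 genes were called between the strains (5.42%). Of the 454 genes called at post-estrus, 439 were tested there, and 438 had the same direction. Of the 439, 389 were also called the same way (88.6%), 164 of 185 higher in SHR (2.41% of all genes) and 225 of 254 lower (3.01%). Among genes not called at post-estrus, 66.4% had the same direction and 3.1% were called the same way. The share also called was 237 of 254 for genes with a fitted change over 2-fold and 152 of 185 for smaller changes. The reported post-estrus fit shares its error estimate and suffix term with those females. The fit of the 8 post-estrus libraries alone shares no library and no error estimate with them. In it 98 genes were called, 97 were tested in the 16 females, all 97 had the same direction and 95 were called. The suffixes, and some values of the other number in the descriptions, occur in both sets of libraries. Agreement due to that number cannot be told apart from strain.

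**Figure D5:**
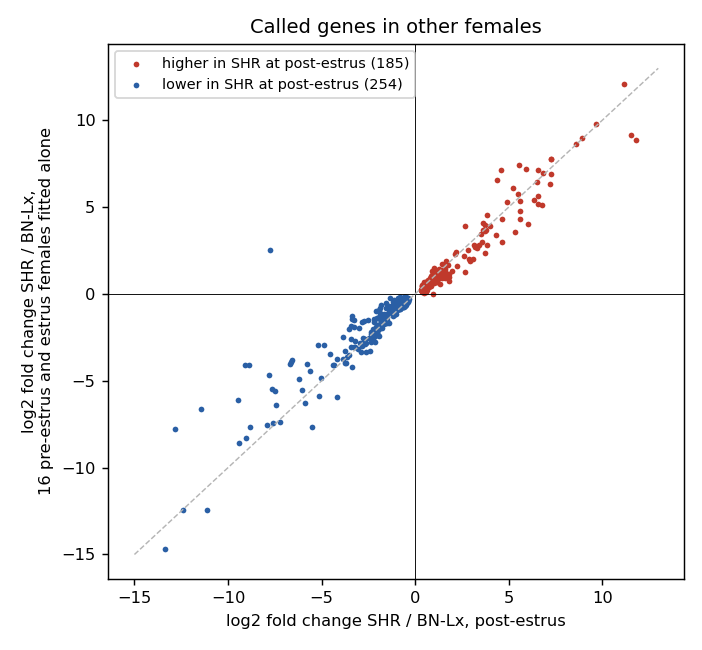
Log2 fold change of SHR over BN-Lx in the 16 pre-estrus and estrus females fitted alone (vertical axis) against that at post-estrus (horizontal axis) for the 439 called genes tested in both (red, higher in SHR at post-estrus; blue, lower), with the dashed line of equal values. All but 1 of the points lie in the quadrants of equal sign.

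The sizes were close in the other animals, though somewhat smaller. Genes called higher at post-estrus had a median log2 fold change of 1.12 there and 0.95 in the 16 females, and genes called lower had -1.5 and -1.11. These are fitted values, and the genes were chosen by those of post-estrus. Stage by stage in the reported fit, 289 of the 454 were also called the same way at pre-estrus (2.5% of all genes were called there) and 282 at estrus (2.24%), and 240 at all 3 stages, 100 of them higher in SHR. The same direction was seen for 450 at pre-estrus and 451 at estrus. In the males, with 2 animals per strain, 439 had the same direction and 117 were also called (0.8% of all genes were called there). Of the 123 genes called at neither of the other stages, 118 had the same direction at both, and 64 were called the same way in the 16 females. For these 123 the difference between stages was not called for any. An unadjusted p under 0.05 was found for 28 of them, against 42 of the 454 (9.25%) and 2.16% of all tested genes, but the 123 were chosen by their calls at the stages this contrast compares.

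In all 8 fits that leave out 1 post-estrus library, 213 of the 454 genes were called each time, 85 higher and 128 lower in SHR.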

How the data were processed

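Total RNA of whole rat brain was made into strand-marking libraries after ribosomal RNA removal, per the labels' protocols (Illumina TruSeq). That text mentions male animals. Strain, sex and stage were taken from the labels of each sample, which give females here. The authors deposited RSEM expected counts per gene, with no normalization, and TPM and transcript-weighted lengths per sample. cutadapt and RSEM are named in the submitters' processing notes without a version. Genome build and annotation version were not given in the sources used here. As background, the rat reference genome comes from a Brown Norway animal.

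The 8 columns were taken from the deposited matrix, and 92 spike-in rows were left out. Expected counts were rounded. All 28 libraries entered 1 edgeR 4.0.16 quasi-likelihood fit (R 4.3.3, TMM, filterByExpr with a count minimum of 10, 18134 genes kept), with terms for the 8 groups and the suffix, which left 19 residual degrees of freedom. Benjamini-Hochberg adjustment ran over all genes. Standard errors come from the F statistic. The 16 other females were fitted alone (11 residual degrees of freedom). Alternatives used DESeq2 1.42.0 and limma 3.58.1. Lower bounds divide the lowest level of the high strain by the highest floor of 3 counts in a library of the other. Lengths are the authors' estimates, averaged over 28 libraries.

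Genes named are those called with at least 1 CPM and the largest change, 2 in each direction, and 2 in each direction with the smallest p of the stage contrast. The members and lists were chosen with earlier results of these data known. The gene lists planned could not be matched to identifiers and were not tested. Rows with counts identical to another row in every library share their reads. They number 144 of the genes tested and 6 of those called, and none is named. Chi-square per degree of freedom between libraries of a group was 46.2 or more, so no pair was a copy. Each library was taken as 1 animal, and p-values measure the spread between these samples. Depth was 43410499 to 90667163 counts. Intervals of single genes cover counting error only. The calculation was tested on simulated data.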

Additional observations from a re-analysis of the deposited data

Results flagged for a closer look

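Within each strain, 24 sets of 4 post-estrus values (library measures and named genes) were examined for a library far from the other 3. Chance would mark about 1 in 20 sets of continuous values. A set with reads in 1 library and none in the other 3 is always marked. A library stood out in 3 of them. ENSRNOG00000046051 reached 38.2 CPM in SHR replicate 6, against 0 to 6.43 CPM in the other SHR libraries. In BN-Lx the same gene had 0.0504 CPM in replicate 6 and none in the others, which is 2 reads. ENSRNOG00000028449 had 0.0436 CPM in SHR replicate 13, which is 3 reads, and none in the other SHR libraries. The sets marked for BN-Lx replicate 6 and SHR replicate 13 are of the kind that is always marked. The number of marked sets therefore cannot be read against 1 in 20.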

How the results depend on the processing

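The number of genes called between the strains at post-estrus was 454 as reported. It was 731 with DESeq2, of which 453 were among the 454, 2269 with the share of the most abundant gene as covariate, 1802 with b35 libraries alone and 63 with b37 libraries alone. The 8 post-estrus libraries alone gave 98 with the suffix term, 161 without it and 83 with limma. Without both BN-Lx replicate 5 and SHR replicate 13 it was 241. These last 2 choices were made after seeing the data. Leaving out 1 post-estrus library gave 273 to 456, the lowest without BN-Lx replicate 5, then 294 without SHR replicate 12. Higher calls made up 42.3% as reported, 62.5% with the covariate, 70.3% in b35 alone, 29.6% in the 8 libraries alone with the suffix term and 25.3% with limma there. The test against the other stages called 0 genes as reported, with each library left out and in each other edgeR and limma setting in which it was run, and 8 with DESeq2, and was not run for the b35, b37 and 8-library fits. With DESeq2, ENSRNOG00000046051 (log2 11.41) and ENSRNOG00000019566 (log2 -9.85) passed. The genes also called in the 16 other females numbered 363 to 393 over the alternatives. The difference in the share of the 8 most abundant genes was -9.06 to -5.76 points with 1 library left out. The 4 genes named for strain kept their call and direction in every setting run. No paired analysis was possible because the groups compared share only replicate number 6. The other number in the descriptions never occurs in both strains, at this stage or in any other group of the series. Depth limits genes under 1 CPM, with a median standard error of 0.78.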

Other observations

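1 gene was called in opposite directions at post-estrus and in the other females. It was singled out after its values were seen. ENSRNOG00000019566, of 1335 bases, had no count in any of the 4 SHR libraries at post-estrus, and 21 to 55 counts in each of the 8 SHR females at pre-estrus and estrus. In BN-Lx it had 0, 23, 78 and 5 counts in post-estrus replicates 3, 4, 5 and 6, and 0 to 26 at the other stages. The SHR males had 15 and 0 counts and the BN-Lx males 37 and 56. The contrast of stages gave an unadjusted p of 0.000187 and an adjusted p of 1 with edgeR, and an adjusted p of 0.00272 with DESeq2. Its adjusted p with edgeR was 0.0477 for strain at post-estrus and 0.0407 for strain in the 16 females. The level is under 1.5 CPM in each library, and the deposited estimates are not whole numbers for this gene.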
